A study of Homo sapiens with 4 samples.

Results

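Promoters that carried very high H3K4me3 and little H3K27me3 in untreated human embryonic stem cells (hESCs) are described here. They were chosen by 2 measured values of the −Dox libraries, an H3K4me3 signal above 100 and an H3K27me3 signal of at most 10, and 1657 of the 20242 promoters in the files met both criteria (8.19%, Wilson 95% interval 7.82 to 8.57%). The cells were JMJD3c-hESCs, a derivative of the hESC line SEES-3 that carries a piggyBac Tet-On construct for HA-tagged JMJD3c, the catalytic domain of the H3K27 demethylase JMJD3 with a nuclear localization signal, and they came from stable puromycin-selected clones. All 4 libraries came from this line, cultured in StemFit AK-03 medium. The −Dox groups were untreated and the +Dox groups received doxycycline (Dox) at 1 µg/ml and were collected on day 3. Each group, namely H3K27me3 −Dox, H3K27me3 +Dox, H3K4me3 −Dox and H3K4me3 +Dox, held 1 library.

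Trimethylation of histone H3 at lysine 4 is laid down around transcription start sites by the SET1 and MLL methyltransferases, mostly at promoters that lie in CpG islands, where CXXC-domain proteins bind unmethylated CG dinucleotides. Transcribed promoters usually carry it, and the widest and highest domains are known at housekeeping genes and at genes that define the identity of a cell. H3K27me3 is deposited by Polycomb repressive complex 2 at silent CpG islands, and promoters with both marks are termed bivalent. Transcription itself was not measured in these 4 libraries, so the word active is used here only for high H3K4me3 with little H3K27me3.

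Values are ngs.plot coverage, scaled by the authors to library size and taken from 3 kb before to 3 kb after a start, so that all windows have the same length and can be compared between genes. The steps between values corresponded to libraries of about 2629351 reads for H3K27me3 −Dox, 2682085 for H3K27me3 +Dox, 3509244 for H3K4me3 −Dox and 2682085 for H3K4me3 +Dox, the 2 +Dox libraries having an identical step. Whether each +Dox file was scaled to its own library is not stated, and if one was not, every +Dox/−Dox ratio of that mark and its counts above a threshold in +Dox would shift together. An H3K4me3 signal of 100 stood for about 103 reads in −Dox and 79.6 in +Dox, whereas an H3K27me3 signal of 10 stood for only about 7.88 and 8.01 reads. Without replicates no test was made, and the intervals below cover counting error only. They may understate even that error, because reads that lack molecular identifiers need not come from separate molecules. An interval of a ratio compares 2 libraries, not 2 conditions.

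The stretch just upstream of the start is shown for 6 of the chosen promoters, since CG dinucleotides are the sequence feature that set these promoters apart from promoters without H3K4me3. ZIC2 and TRIM71 had the highest H3K4me3 of all 1657, and JARID2, RPL23A, HNRNPA0 and SOX4 come from the gene groups treated below. Each sequence is the 150 bases before the start, 5′ to 3′ on the strand of the gene, from GRCh37 (the assembly behind hg19), lies outside any annotated exon, and has every CG in capitals.
ZIC2 (chr13:100633888-100634037, plus strand): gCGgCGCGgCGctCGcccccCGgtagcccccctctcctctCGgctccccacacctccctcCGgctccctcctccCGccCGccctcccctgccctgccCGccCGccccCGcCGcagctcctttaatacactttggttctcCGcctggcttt
TRIM71 (chr3:32859339-32859488, plus strand): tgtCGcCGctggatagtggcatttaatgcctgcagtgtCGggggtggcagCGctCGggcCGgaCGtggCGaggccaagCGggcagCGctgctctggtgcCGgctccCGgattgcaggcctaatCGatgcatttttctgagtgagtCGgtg
JARID2 (chr6:15246150-15246299, plus strand): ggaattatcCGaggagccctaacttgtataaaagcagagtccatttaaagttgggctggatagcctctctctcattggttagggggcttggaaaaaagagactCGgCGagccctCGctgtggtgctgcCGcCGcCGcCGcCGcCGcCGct
RPL23A (chr17:27046853-27047002, plus strand): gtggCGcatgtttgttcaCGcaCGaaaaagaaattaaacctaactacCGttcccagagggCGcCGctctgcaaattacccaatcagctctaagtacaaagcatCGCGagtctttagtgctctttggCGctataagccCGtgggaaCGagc
HNRNPA0 (chr5:137090053-137090202, minus strand): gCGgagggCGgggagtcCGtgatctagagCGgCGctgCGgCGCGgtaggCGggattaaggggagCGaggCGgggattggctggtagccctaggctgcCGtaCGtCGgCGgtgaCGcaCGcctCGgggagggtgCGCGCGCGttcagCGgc
SOX4 (chr6:21593832-21593981, plus strand): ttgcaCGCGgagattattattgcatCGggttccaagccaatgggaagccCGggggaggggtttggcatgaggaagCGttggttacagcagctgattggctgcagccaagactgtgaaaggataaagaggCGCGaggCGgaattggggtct
The 6 chosen promoters held between 8 CGs (SOX4) and 23 (HNRNPA0) in this stretch. H3K4me3 −Dox was 303 at ZIC2, 294 at TRIM71, 200.3 at JARID2, 188 at RPL23A, 170 at HNRNPA0 and 203 at SOX4. Over all promoters that could be placed, the median number of CGs in this stretch was 15 in the chosen set and 2 at promoters with H3K4me3 of at most 20 and the same limit on H3K27me3. It was also 15 at promoters with moderate H3K4me3 (above 20 and up to 100, again with H3K27me3 of at most 10), so these 150 bases did not separate very high from moderate H3K4me3.

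The H3K4me3 values of the 1657 promoters were crowded against the threshold. In −Dox they ran from 100.02 to 303 with a median of 118, and 903 of them (54.5%) lay below 120. Another 548 lay between 120 and 150, 176 between 150 and 200, and 30 above 200. Just inside the threshold were GAB1, APAF1 and DESI2, each at 100.02, and just outside it CD9, ASUN and CRMP1, each at 99.7. On the H3K27me3 side, YBX3, IGF2BP2 and ANO8 were inside at 9.89, and MSMO1, MTA3 and SART3 were left out at 10.3. The signal of less than 1 read separated these neighbours, so membership at the edge lies within counting error.

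The 10 highest promoters included several regulators of early development. ZIC2, a zinc finger transcription factor of the early embryo, stood first with 303 in −Dox and 288 in +Dox. TRIM71, a ubiquitin ligase and RNA-binding repressor of differentiation in early embryos, had 294 and 254. SEMA6A, a transmembrane semaphorin, had 263 and 201, and its ratio of 0.763 (0.624 to 0.931) was the only one of the 10 whose interval lay off 1. PCGF2, a Polycomb repressive complex 1 subunit, had 252 and 231, and CTB-58E17.5, a gene known by its clone name, had 237 and 210. The remaining 5 were SPRY2, a feedback inhibitor of receptor tyrosine kinase signalling (235 and 194), SMAD7, the inhibitory SMAD of the TGF-β pathway (232 and 258), the oncofetal RNA-binding protein IGF2BP1 (232 and 223), TNRC18 (229 and 215) and FOXD3, a forkhead factor of pluripotent cells and neural crest (221 and 232). Each of these 10 promoters had an H3K4me3 signal of at least 194 in +Dox, with SMAD7 second and SEMA6A and SPRY2 last in that library.

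H3K4me3 was largely retained after 3 days of Dox. In +Dox the 1657 promoters ran from 60.8 to 288 with a median of 113. All 1657 stayed above 20, the level at which the study calls a promoter marked. So did 98.0% of moderate promoters and all 294 promoters with H3K4me3 above 100 and H3K27me3 above 10 in −Dox. In +Dox 62.7% of all promoters lay above 20. Of the 1657, 1216 (73.4%, 71.2 to 75.5%) stayed above 100, a level reached in +Dox by 8.91% of all promoters. Only 67 of the 1657 (4.04%) were below 80, against 9.52% of those 294 promoters. No ratio of the 1657 was below 0.5 or above 2, against 0.478 and 0.0532% of moderate promoters. A ratio below 0.66 was found at 33 (1.99%) and a ratio above 1.5 at 1 (0.0604%), against 11.7% and 11.6% of all promoters with a ratio, at which fewer reads mostly stand behind a ratio. The ratios scattered little more than counting allowed, with an SD of 0.22 on the log2 scale and a median counting error of 0.20 for a single promoter.

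**Figure D1:**
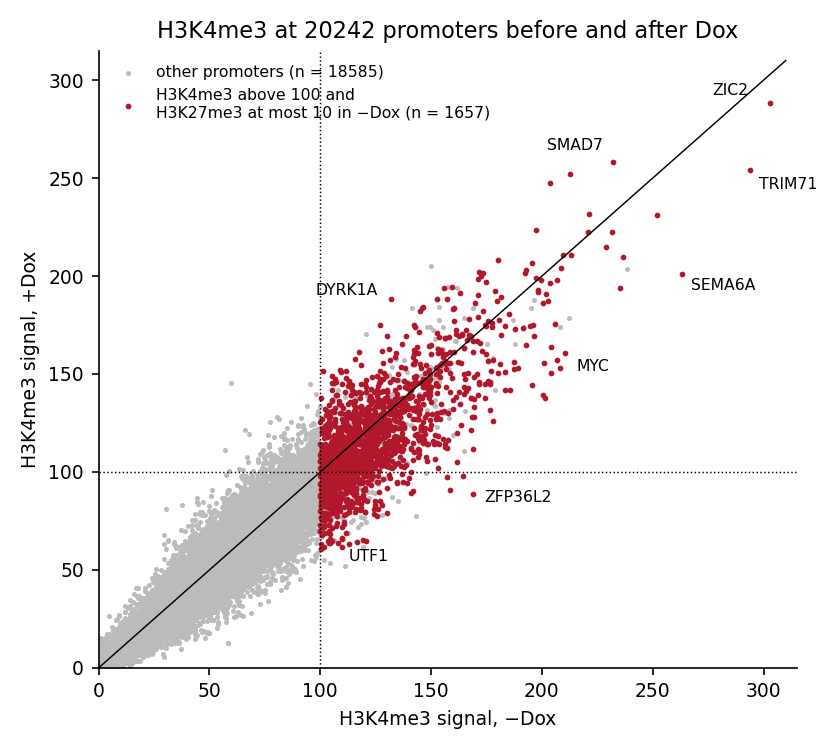
H3K4me3 signal of each of the 20242 promoters in the −Dox library (horizontal axis) and in the +Dox library (vertical axis), with 1 point per promoter and the 1657 chosen promoters in red. The solid line marks equal values and the dotted lines a signal of 100. Most red points lie in a band around the line of equal values, with ZFP36L2, UTF1 and MYC below it and DYRK1A and SMAD7 above it.

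The median H3K4me3 log2 ratio of the chosen promoters was −0.084 (−0.096 to −0.070), and 1108 of the 1657 (66.9%) were lower in +Dox. The −Dox value both chose these promoters and is the denominator of their ratio, so this shift cannot be told apart from the selection. When the same criteria were put to the +Dox values, 1477 promoters met them and the median log2 ratio was 0.039, against −0.031 at promoters with moderate H3K4me3. When they were put to the mean of both conditions, 1575 met them and the median was −0.025, against −0.024 at moderate promoters. Under the rule on −Dox values the moderate promoters had −0.010. The median of the very high promoters thus lay below that of moderate ones with −Dox values, above it with +Dox values, and within 0.01 of it with the mean. Both criteria were still met in +Dox by 1030 of the 1657 (62.2%).

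Single promoters departed further from equality. The interval of the ratio lay below 1 at 122 chosen promoters (7.36%, against 3.06% of all promoters) and above 1 at 20 (1.21%, against 1.73%). The shares of all promoters are no measure for these, since the choice of a high −Dox value favours low ratios. More reads also narrow an interval, and the median number of −Dox reads was 121 at the chosen promoters and 42.5 over all. The lowest ratio was that of ZFP36L2, which encodes a zinc finger protein that destabilizes AU-rich mRNAs, with 169 in −Dox and 88.7 in +Dox (ratio 0.525, 0.394 to 0.699). It was followed by CTD-2207O23.10 (121 and 64.9) and PNPLA6, a lysophospholipase (119 and 65.2), whose windows overlap almost wholly and are about 1 observation, then by EVA1B (117 and 64.1) and CHTF18, a subunit of the clamp loader for sister chromatid cohesion (113 and 63.4). These 4 windows, and those of C19orf43 and LRRC8A below, held another start. At the other end, C19orf43 had 101.2 and 152 (ratio 1.5, 1.15 to 1.97). DYRK1A, a dual-specificity kinase, had 132 and 188 (1.43, 1.12 to 1.81). LRRC8A, a subunit of the volume-regulated anion channel, had 105 and 149, PCF11, a factor of mRNA cleavage and transcription termination, had 109 and 152, and LRIG1, a feedback inhibitor of ERBB receptors, had 105 and 145.

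Genes of pluripotency had the greatest share of very high promoters among the 27 lists under the rule as given. Splicing factors came before them with the rule on the mean (49.1 against 46.2%) or on +Dox values (40 against 35.9%). With H3K4me3 above 80, ribosomal proteins (72.2%) and splicing factors (61.8%) both came before pluripotency genes (53.8%). Of 39 pluripotency promoters, 20 were chosen (51.3%, 36.2 to 66.1%), against 8.19% of all promoters. FOXD3 (221 in −Dox, 232 in +Dox) was the highest. MYC, the growth-promoting transcription factor, had 211 and 161, PRDM14, a repressor of differentiation genes, had 201 and 156, and JARID2, a cofactor of Polycomb repressive complex 2, had 200.3 and 186. The surface sialomucin PODXL had 195 and 144, and the developmental pluripotency factor DPPA4 had 180.4 and 150.3. DNMT3B, a de novo DNA methyltransferase, had 173 and 182. Among the 10 highest chosen promoters of the list, only it and FOXD3 had a higher +Dox value. MYCN, the MYC paralogue, had 172 and 146. The zinc finger factor SALL4 had 163 and 141, and SOX2, a core factor of the network, had 157 and 153. These 10 promoters stayed above 140 in both conditions. Below them, FGFR1, a receptor for the growth factor FGF2, had 146 and 183, the highest +Dox to −Dox ratio of the list's chosen promoters. The DNA demethylation enzyme TET1 had 139 and 144, the corepressor TRIM28 had 130.5 and 122, and L1TD1, an RNA-binding protein, had 129.9 and 114. The next 5 lay closer to the threshold and were below it in +Dox. ZSCAN10 had 119 and 88.0, the telomere protein TERF1 112 and 98.8, and FGF2 itself 108 and 91.7. UTF1 had 108 and 63.8, and the H3K9 demethylase KDM4C had 102 and 87.6.

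Of these 20 promoters, 15 had a lower and 5 a higher H3K4me3 value in +Dox, with a median log2 ratio of −0.20. Over all 1657 the median was −0.084 and 66.9% were lower. The interval lay below 1 at MYC (ratio 0.763, 0.608 to 0.953), PRDM14 (0.776, 0.615 to 0.972), PODXL (0.738, 0.583 to 0.935), ZSCAN10 (0.739, 0.540 to 0.994) and UTF1 (0.590, 0.418 to 0.834), and above 1 at none. Over all 1657 the interval lay below 1 at 7.36% and above 1 at 1.21%. Chosen on the mean of both conditions, 18 promoters of the list had a median of −0.19 with 13 lower, against 55.5% lower of all 1575 so chosen. Over the 33 promoters of the list with −Dox H3K4me3 above 20 the median was −0.10 with 22 lower, and no share over all promoters above 20 was computed. These last forms were added after the data were seen. UTF1, a chromatin-bound factor of undifferentiated stem cells, had the lowest ratio of the 20, and its H3K27me3 signal was 4.94 in −Dox and 14.9 in +Dox (ratio 3.02, 0.895 to 12.6).

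**Figure D2:**
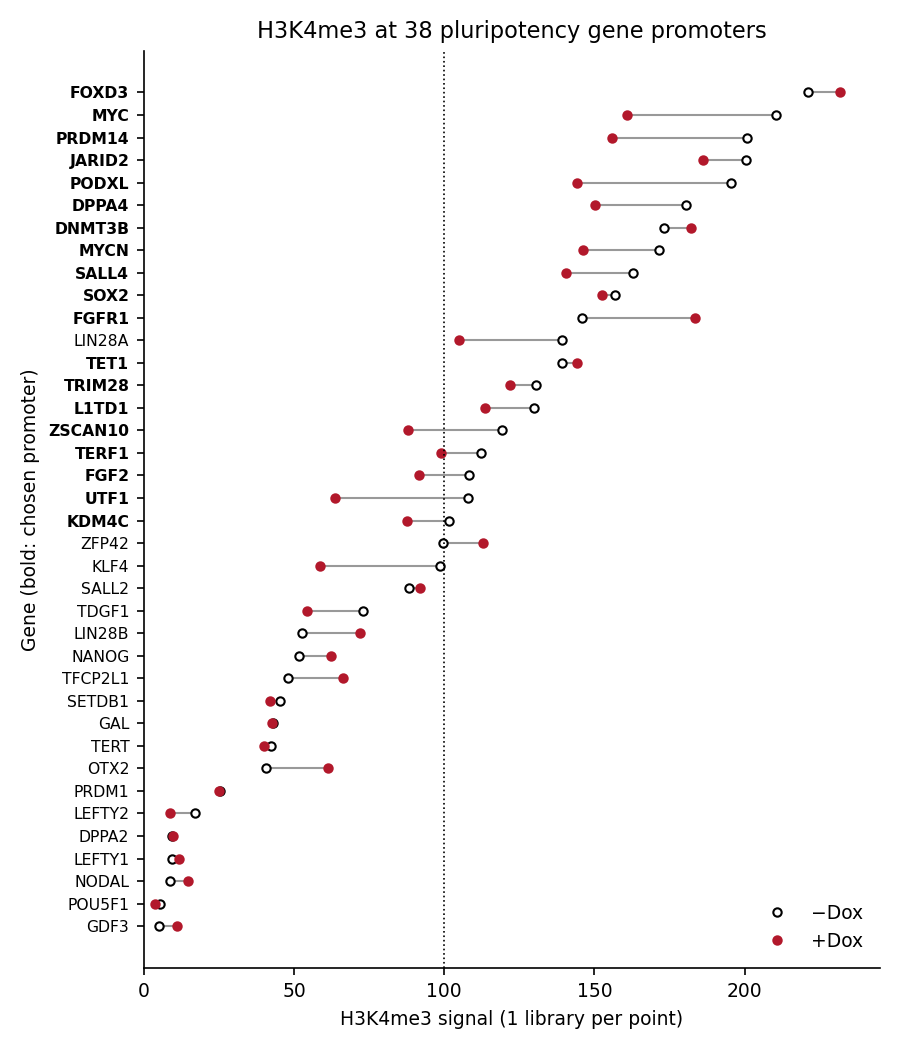
H3K4me3 signal of 38 pluripotency promoters, 1 row per gene, in −Dox (open circles) and +Dox (red circles), with chosen promoters in bold and the dotted line at 100. The 10 highest chosen promoters stay right of 140 in both conditions, and UTF1 shows the widest gap to the left in relation to its level among them.

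The pluripotency promoters left out fell into several kinds. LIN28A had an H3K4me3 signal of 139 in −Dox and 105 in +Dox, but its H3K27me3 signal of 12.9 exceeded the limit. ZFP42 missed with H3K4me3 at 99.7 and H3K27me3 at 10.3, and KLF4 had 98.6 with an H3K27me3 signal of 51.0. OTX2 had 40.8 with an H3K27me3 signal of 143 in −Dox and 30.2 in +Dox. Others simply had low H3K4me3, with H3K27me3 of at most 10 and a start at most 24 bp from the canonical one of GENCODE. These were LIN28B (52.7 in −Dox), SETDB1 (45.3), TERT (42.2), PRDM1 (25.4), DPPA2 (9.40) and GDF3 (5.13). For some of the most familiar genes the start in the files was not the canonical one of GENCODE. The POU5F1 start lay 10049 bp from it and had an H3K4me3 signal of 5.41, and the starts of TDGF1, NODAL and LEFTY1 lay 3362, 6270 and 22236 bp away. The NANOG start lay 1608 bp away and had a signal of 51.6. The low values of POU5F1, NODAL and LEFTY1 therefore say nothing of their main promoters. Among the chosen promoters, 74 of 1541 (4.80%) had a start over 3 kb from the canonical one, against 10.8% of all promoters.

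Genes for RNA processing and protein synthesis were examined next. Of 55 splicing factor promoters, 27 were chosen (49.1%, 36.4 to 61.9%). HNRNPA2B1 had 192 in −Dox and 201 in +Dox, HNRNPK 173 and 202, HNRNPA0 170 and 186, and HNRNPUL2 164 and 170.4. These 4 genes encode nuclear ribonucleoproteins that coat nascent RNA, and each was slightly higher in +Dox. The chosen promoters of the splicing list had 16 higher and 11 lower values, against 66.9% lower over all 1657, a median log2 ratio of 0.03, and no interval off 1. Over all 1657 the interval lay below 1 at 7.36% and above 1 at 1.21%. All 27 lay between 88.0 and 202 in +Dox.

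Of 79 promoters of cytosolic ribosomal proteins, 37 were chosen (46.8%, 36.2 to 57.7%). RPL23A had 188 and 173, RPL10A 175 and 160.3, RPL8 166 and 141, and RPL7A 158 and 116 (ratio 0.738, 0.569 to 0.963). Of the 37, 29 were lower and 8 higher in +Dox, against 66.9% lower over all 1657, with a median log2 ratio of −0.10. Translation factors had 19 of 65 (29.2%), among them EIF4A2 (144 and 145), the RNA helicase of the cap-binding complex, EEF2 (137 and 111) and EEF1A1 (135 and 117), the elongation factors, and EIF3B (135 and 122). Aminoacyl-tRNA synthetases had 7 of 37 (18.9%), led by the lysyl-tRNA synthetase KARS (199 and 198).

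Of 36 immediate early and stress genes, 14 were chosen (38.9%, 24.8 to 55.1%). MYC, which is also on the pluripotency list, had the highest value. SOX4, a factor of progenitor cells, had 203 in −Dox and 196 in +Dox, IER2 had 197 and 170, and ZFP36L2 had 169 and 88.7. All 14 were lower in +Dox, against 66.9% of all 1657, with a median log2 ratio of −0.17. The interval lay below 1 at MYC and ZFP36L2, against 7.36% of all 1657. Chosen on the mean of both conditions, 12 of 14 were lower, against 55.5% of all 1575 so chosen, with the same median of −0.17. Of the 34 promoters of this list with −Dox H3K4me3 above 20, 25 were lower with a median of −0.11, and no share over all promoters above 20 was computed.

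The remaining groups had shares between 9.76 and 33.3%, against 8.19% of all promoters. The Wilson intervals included 8.19% for DNA replication, cell cycle, DNA repair, sterol synthesis, mitochondrial ribosomal proteins, mitochondrial import and the polymerase and Mediator list. Glycolysis had 6 of 18 (33.3%), with GAPDH at 142 and 145 and the glucose transporter SLC2A1 at 126 and 122. Chromatin enzymes had 15 of 53 (28.3%), with the heterochromatin protein CBX3 at 193 and 203 and ARID1A, a subunit of the BAF remodelling complex, at 165 and 143. The CBX3 window is nearly that of the splicing factor HNRNPA2B1 above, so both values come from 1 region. Histones and the protein quality control groups came next. Replication-dependent histones had 17 of 71 (23.9%), with HIST1H3J at 176 and 177, proteasome subunits 8 of 39 (20.5%), with PSMB3 at 165 and 163, and chaperones 17 of 86 (19.8%), with DNAJC7 at 158 and 141. The respiratory chain had 14 of 89 (15.7%), with UQCRH at 173 and 162 and NDUFS6 at 153 and 102 (ratio 0.665, 0.504 to 0.877). Genes of the cell division cycle lay lower. DNA replication and cell cycle genes each had 7 of 49 (14.3%), DNA repair 5 of 35 (14.3%), and sterol synthesis 3 of 21 (14.3%). Among these were the ribonucleotide reductase subunit RRM2 (144 and 117), the kinases CDK6 (179.5 and 187) and WEE1 (177 and 152), and SQLE (107 and 127), IDI1 (103 and 108) and CYP51A1 (102 and 117) of sterol synthesis, whose 3 promoters were each higher in +Dox, with intervals that included 1. Mitochondrial ribosomal proteins had 10 of 76 (13.2%), and 3 of these 10 had an interval below 1, among them MRPL20 (156 and 114) and MRPL36 (157 and 97.3). The MRPL36 window is nearly that of NDUFS6 above, so both values come from 1 region. Mitochondrial import had 3 of 24 (12.5%), with TOMM70A at 111 and 107, and RNA polymerase II, Mediator and general factors 8 of 82 (9.76%), with POLR2B at 208 and 153.

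A few large lists had low shares. ZNF zinc finger genes, of which 416 of 471 had H3K4me3 above 20, had 26 of 471 (5.52%, 3.79 to 7.97%), led by ZNF462 (195 and 207). Keratins and keratin-associated proteins had 2 of 148, namely KRT8 (122 and 121) and KRT18 (123 and 122), the keratins of simple epithelia. The KRT8 start in the files lay 44766 bp from the canonical one and its window overlapped that of KRT18, so these 2 values are largely 1 region. No olfactory receptor promoter (0 of 379, an upper Wilson limit of 1.00%) was chosen. None of the markers of blood (0 of 4), fibroblasts (0 of 6) or hepatocytes (0 of 3) was either, but these lists are too short to be read against 8.19%, with upper Wilson limits of 48.99, 39.03 and 56.15%. The mesoendoderm markers (0 of 7) and neuroectoderm markers (0 of 5) were absent too, and these lists are also too short, with upper Wilson limits of 35.4 and 43.4%. Their highest H3K4me3 signals in −Dox were 66.4 and 46.4, so none of them met the H3K4me3 criterion. Of these markers 6 and 5 respectively also had an H3K27me3 signal above 20 in −Dox and so failed both criteria. The GATA4 start in the files lay 27243 bp from the canonical one, so its values say nothing of its main promoter. In all, 268 of the 1657 promoters (16.2%) belonged to at least 1 of the 27 lists, so most of them lay outside any group examined. Gene symbols that share a root, with at least 8 promoters each, were also counted. The ARID family had 6 of 10 (ARID1A, ARID1B, ARID2, ARID3B, ARID4A and ARID4B) and the SMAD family 3 of 8 (SMAD1, SMAD3 and SMAD7). These families were picked after their values were seen.

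**Figure D3:**
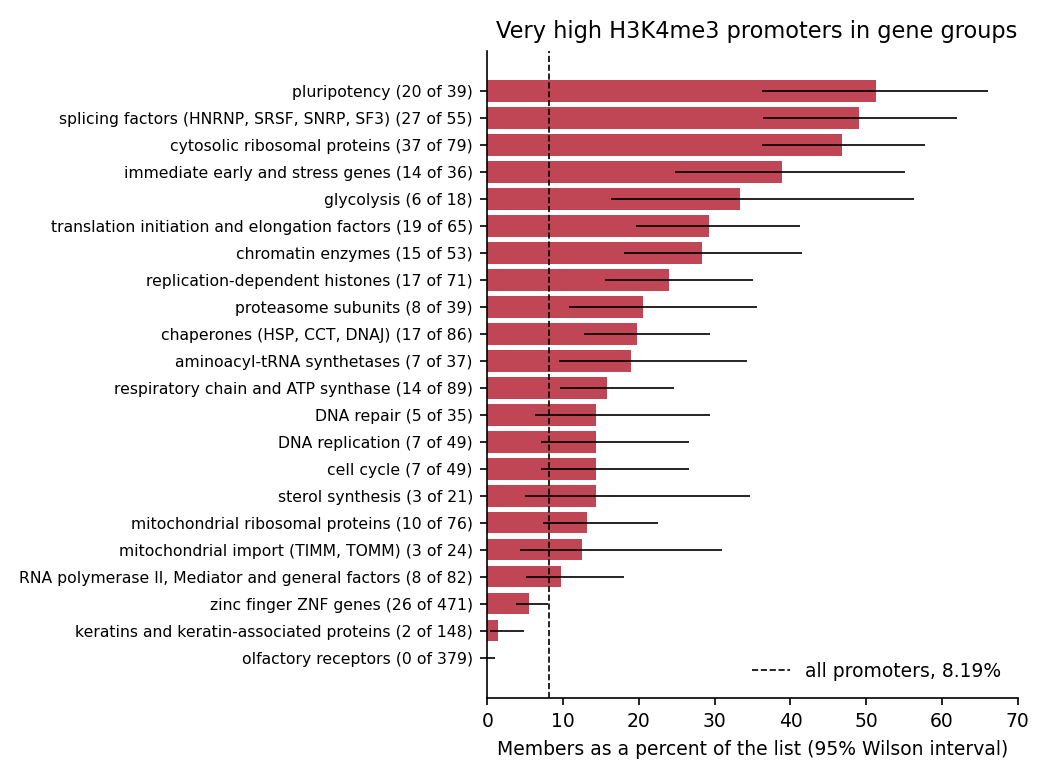
Share of each gene list with 15 or more promoters that met the rule, in percent, with the 95% Wilson interval as a line and the number of promoters beside each name. The dashed line is the 8.19% of all promoters, which the bars for pluripotency (51.3%), splicing factors (49.1%) and cytosolic ribosomal proteins (46.8%) exceed, and which the ZNF and keratin bars do not reach.

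A property the rule did not use was the arrangement of the starts. Of 1551 chosen promoters that could be placed on GRCh37, 721 (46.5%, 44.02 to 48.97%) had the start of another gene of the files within their window, against 23.7% of promoters with moderate H3K4me3 and 17.8% of all promoters. In 491 of them (31.7%) the neighbour was divergent and within 1 kb, against 13.7% and 9.70%. Read the other way, 5.53% of promoters with no other start in the window were chosen (830 of 14998), 22.3% of those with 1 (677 of 3034) and 20.8% of those with 2 or more (44 of 212). A window with 2 starts takes up the signal of both, and how much of the high signal this accounts for was not tested. The share with a neighbour was between 45.3 and 49.4% in the bands up to 200 and 20% among placed promoters above 200, so most of the very highest windows held a single start.

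The gene groups differed in this respect. With windows that held no other start, where 5.53% of all promoters were chosen, pluripotency genes had 19 of 36, cytosolic ribosomal proteins 23 of 52 and immediate early genes 12 of 33, shares near those over all windows. Splicing factors had 13 of 36, mitochondrial ribosomal proteins 2 of 42, the respiratory chain 4 of 50 and the polymerase and Mediator list 0 of 54. None of the 19 placed pluripotency promoters that were chosen had a neighbouring start.

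**Figure D4:**
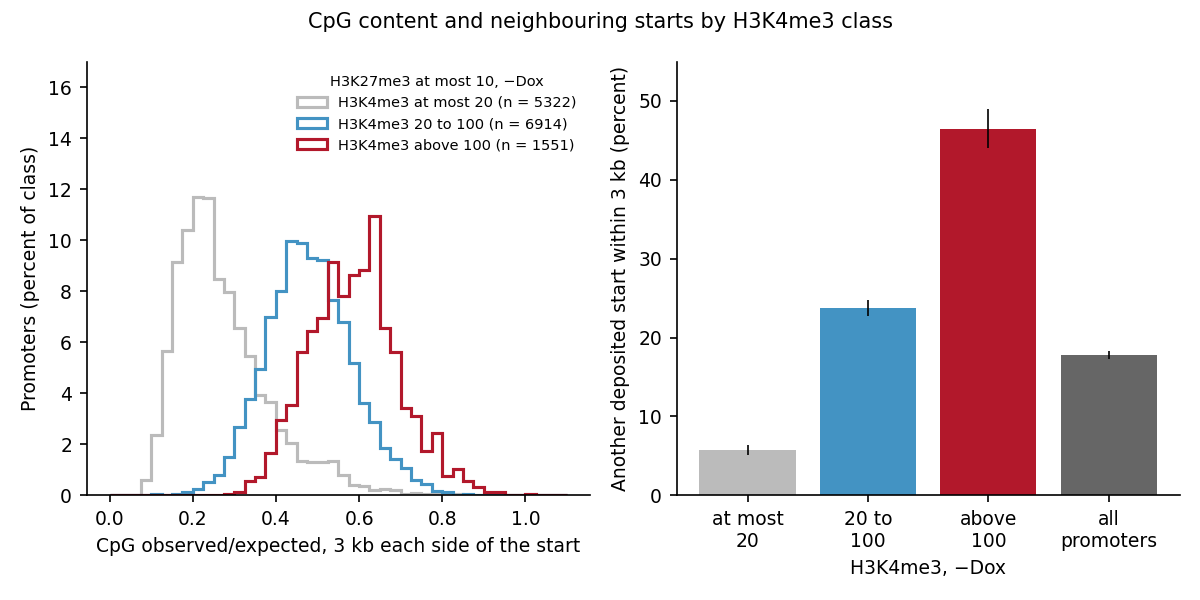
Left, distribution of the CpG observed/expected ratio within 3 kb of the start, as percent of each class, for promoters with H3K27me3 of at most 10 and H3K4me3 of at most 20, 20 to 100 or above 100 in −Dox. Right, percent of promoters with another start within 3 kb, with 95% Wilson intervals. The curve for H3K4me3 above 100 lies furthest right (median 0.589), and its bar (46.5%) is the tallest.

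CpG content was the second such property. Within 500 bp of the start the median CpG observed/expected ratio was 0.825 at the chosen promoters, 0.774 at moderate and 0.262 at low promoters, and a ratio above 0.6, a usual line for a CpG island, was found at 93.6, 87.0 and 11.2% of them. Over the whole window the gap between very high and moderate promoters was wider, with medians of 0.589 and 0.476, and it remained when windows with another start were left out (0.608 and 0.476). The median was higher in each successive H3K4me3 band, at 0.566 from 100 to 120, 0.604 from 120 to 150, 0.654 from 150 to 200 and 0.723 above 200. GC content within 500 bp was 64.9% at the chosen and 62.4% at moderate promoters. High CpG content was not particular to the chosen promoters. The 277 placed promoters with H3K4me3 above 100 but H3K27me3 above 10 had median CpG ratios of 0.836 within 500 bp and 0.643 over the window.

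Short motifs were counted on both strands between 250 bases before and 50 after the start. The GC box GGGCGG was in 74.0% of chosen, 73.1% of moderate and 56.4% of all promoters, and CCAAT in 37.4, 37.4 and 35.1%. The ETS-type motif CCGGAAGT was in 8.58, 10.2 and 5.53%, the NRF1-type motif GCGCATGC in 5.81, 6.07 and 4.003%, the YY1 motif AAGATGGCG in 5.03, 4.38 and 2.51%, the cyclic AMP element TGACGTCA in 3.55, 3.33 and 2.41%, the E-box CACGTG in 9.29, 10.2 and 8.48%, and the ZNF143-type motif ACTACAAT in 0.710, 1.20 and 0.674%. TATAAA was in 6.45% of chosen, 4.32% of moderate and 9.97% of all promoters. The Wilson intervals of the chosen and moderate promoters were apart for TATAAA (5.33 to 7.79% and 3.87 to 4.83%). In windows with no other start they were also apart for CCGGAAGT, which 5.90% (4.49 to 7.72%) of the chosen and 9.19% (8.44 to 10.004%) of the moderate promoters held. A match is only a match of letters.

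H3K27me3 at the chosen promoters was low by the rule. The −Dox median was 4.94 (about 3.90 reads) and the +Dox median 5.97 (about 4.78 reads), so that a single promoter can hardly be read. In +Dox 229 of the 1657 (13.8%, 12.2 to 15.6%) exceeded 10, against 21.2% of all promoters, 11.7% of moderate and 9.74% of low promoters, and none exceeded 20. A ratio above 2 was found at 393 of the 1628 with a ratio (24.1%) and below 0.5 at 191 (11.7%). The shares of all promoters, 14.7 and 21.5%, are no measure for these, since the limit on the −Dox value favours high ratios, and moderate promoters under the same limit had 19.4 and 13.9%. The median counting error of a single log2 ratio was 1.01. The interval of the ratio lay above 1 at 37 of the 1628 (2.27%) and below 1 at 6 (0.369%), against 1.58 and 0.298% of moderate promoters. The highest +Dox values were 17.9 at ZNFX1 (2.66 in −Dox, ratio interval 1.58 to 62.5), 17.5 at BSDC1 and at KCNG3, 17.2 at MAPKAPK5 and 16.8 at TBCD. ZNFX1 encodes an antiviral RNA helicase, KCNG3 a potassium channel subunit, MAPKAPK5 a stress kinase and TBCD a tubulin chaperone. The KCNG3 window is nearly that of MTA3, which was left out at 10.3 in −Dox, so the value belongs to a region with both starts.

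Summed over promoters, the H3K27me3 signal could be read with more precision. Its mean was 5.17 in −Dox and 6.54 in +Dox at the chosen promoters, a pooled ratio of 1.27 (1.23 to 1.31). At moderate promoters, held to the same H3K27me3 limit, the means were 5.31 and 6.05 with a pooled ratio of 1.14 (1.12 to 1.16), and at low promoters 4.69 and 5.22 with 1.11 (1.09 to 1.13). A ratio above 1 is given by the limit on the −Dox value itself, so only the difference between classes was considered. The 294 promoters with H3K4me3 above 100 and H3K27me3 above 10 had a pooled ratio of 0.569, the limit acting there in the other direction. Overlapping windows enter these sums separately, so some reads are counted more than once. Another start lay in the window at 46.5% of placed chosen and 23.7% of moderate promoters. The pooled intervals here and below are too narrow for this reason, by an amount that was not computed.

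The ratio of very high promoters divided by that of moderate promoters was 1.11 (1.07 to 1.15). The very high promoters had the highest pooled ratio under all 3 choices of library for the classes, 2 of which were set beside the moderate promoters only after the data were seen. With classes taken from the +Dox values the pooled ratios were 0.898 (0.869 to 0.928) at very high, 0.765 at moderate and 0.815 at low promoters. With classes taken from the mean of both conditions they were 1.17 (1.13 to 1.20), 0.991 and 0.968. The very high promoters therefore held more H3K27me3 signal in +Dox in relation to −Dox than moderate ones by a factor of 1.17 (1.13 to 1.22) and 1.18 (1.14 to 1.22) under those choices. When promoters were split into 4 equal groups by window GC content, with classes from the mean (also added after the data were seen), the pooled ratio was 1.28, 1.13, 1.17 and 1.12 at very high and 0.998, 1.01, 0.988 and 0.959 at moderate promoters, from the lowest GC content to the highest. Among the chosen promoters it was 1.25 in the band of H3K4me3 from 100 to 120, 1.23 from 120 to 150, 1.44 from 150 to 200 and 1.47 (1.16 to 1.84) above 200. With bands and classes on the mean of both conditions it was 1.14, 1.17, 1.27 and 1.28 (0.942 to 1.76). The difference between the mean +Dox values of very high and moderate promoters, 6.54 and 6.05, was less than the signal of 1 read per window, and with 1 library per group the difference between conditions cannot be told apart from a difference between the 2 H3K27me3 libraries.

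**Figure D5:**
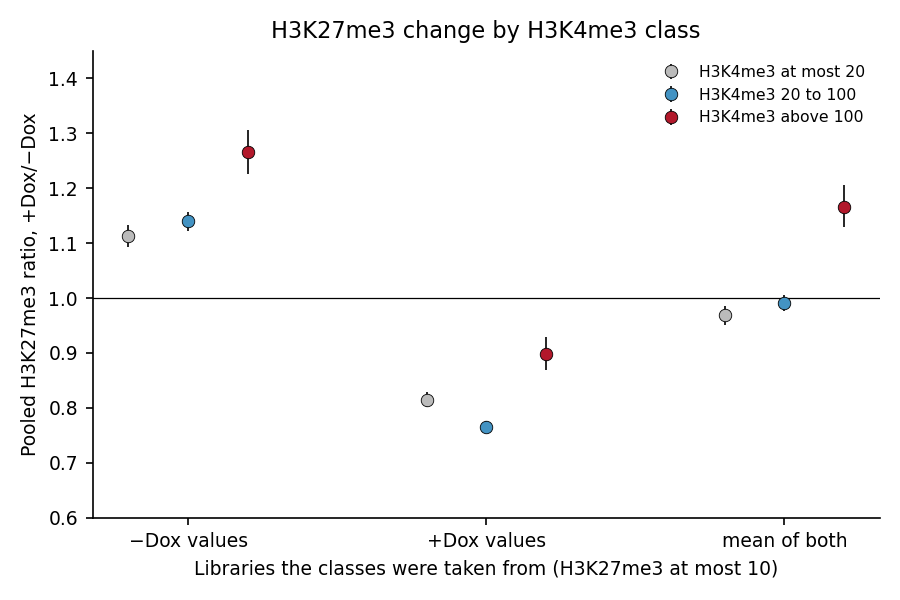
Pooled +Dox/−Dox ratio of the H3K27me3 signal, summed over the promoters of each H3K4me3 class, with classes taken from the −Dox values, the +Dox values or the mean of both, and lines for the 95% counting interval. The point for H3K4me3 above 100 is the highest of its set each time, at 1.27, 0.898 and 1.17. Reads in overlapping windows are counted more than once, so the intervals are too narrow.

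In the gene groups the share above 10 in +Dox is set against the 13.8% of all chosen promoters, and the pooled ratio against their 1.27. Among the chosen pluripotency promoters 4 of 20 exceeded an H3K27me3 signal of 10 in +Dox, with a pooled ratio of 1.51, among splicing factors 4 of 27 with 1.13, among cytosolic ribosomal proteins 9 of 37 with 1.46, and among immediate early genes 5 of 14 with 1.42. Over the other lists the pooled ratio ran from 0.643 at 3 mitochondrial import promoters to 1.98 at 5 DNA repair promoters. Translation factors (1.61), aminoacyl-tRNA synthetases (1.52) and the polymerase and Mediator list (1.70) also lay above the pluripotency list. RPL10A had 3.803 in −Dox and 15.7 in +Dox (ratio 4.12, 1.17 to 23.3), and EEF1A1 had 2.66 and 12.3 (4.62, 1.05 to 46.2). TRIM28 went the other way, with 9.89 and 1.12 (0.113, 0.00277 to 0.918). None of the chosen promoters of these lists passed 20 in +Dox, so every one of them remained below the level at which the study calls a promoter marked by H3K27me3.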

How the data were processed

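ChIP-seq for H3K27me3 and H3K4me3 was performed by the authors on −Dox and +Dox JMJD3c-hESCs and sequenced as single-end MiSeq reads. The authors mapped the reads to hg19 with Bowtie2 (CASAVA 1.4 is named in the submitters' processing notes), removed mitochondrial reads and deposited ngs.plot signal (coverage) within 3 kb of each start. The other versions and the gene annotation are not given in the sources used here. The methods also describe profiles scaled by the read density beyond transcription ends, without saying if the deposited signal includes this. No input was used here.

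The 4 files were joined on gene and transcript. Plain +Dox/−Dox ratios were taken without a pseudocount, leaving out promoters at 0 in −Dox. Approximate reads were the signal divided by its step and by the data points that 1 read covers (between 3 and 4). Ratio intervals came from exact Clopper-Pearson intervals of these reads, shares carry Wilson intervals, and medians order-statistic intervals, all at 95%. Starts were placed by transcript identifier with GENCODE 44 on GRCh37 (18244 promoters, 90.1%, strand agreeing for 100%), and of the chosen ones 1551 (93.6%). Named genes were the 10 highest, the 5 lowest and 5 highest H3K4me3 ratios, the 5 highest +Dox H3K27me3 values, the 3 promoters next to each side of a threshold, up to 4 per gene list and every pluripotency gene. The single values of some listed genes are not reported here, although the counts include them. The rule, the 27 lists, the 9 motifs and the alternatives were chosen with earlier results of these data known. Scripts (Python 3.11.15, pandas 2.3.3, numpy 2.4.6, scipy 1.17.1) were tested on simulated data. Alternatives were other thresholds, the +Dox or mean values, 2 scalings, a pseudocount of 5, 1 promoter per set of identical rows (12 chosen promoters in 6 sets) and windows with 1 start.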

Additional observations from a re-analysis of the deposited data

How the results depend on the processing

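No paired analysis was possible because the groups have a single library. Of 61 alternative values of the main results, 31 stayed within the reported interval or within 1.5 times the count, 28 moved and 2 reversed. Both reversals came from putting the rule to the +Dox values, where the median log2 ratio was 0.039 for H3K4me3 and −0.029 for H3K27me3. The +Dox shares were not run there, since that rule fixes them. The cause was not tested for the other values.

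The number of chosen promoters was 3289 with H3K4me3 above 80, 206 above 150, 838 with H3K27me3 of at most 5 and 830 with no other start in the window. The median H3K4me3 log2 ratio was −0.067 with H3K4me3 above 80, −0.025 on the mean of both conditions, −0.11 with no other start, −0.048 with libraries scaled to the same total and −0.17 with a median ratio of 1 over low promoters. The share above 100 in +Dox was 45.9% with H3K4me3 above 80, 98.1% above 150, 87.3% on the mean, 69.4% with no other start and 77.5% with the same total. The median H3K27me3 log2 ratio, 0.28 as reported, was 0.47 with H3K4me3 above 150, 0.90 and 0.16 with H3K27me3 of at most 5 and 20, 0.21 on the mean, 0.51 with the same total, 0.37 over low promoters and 0.16 with a pseudocount of 5. The share with H3K27me3 above 10 in +Dox was 24.3% with H3K4me3 above 150, 11.7% on the mean and 25.2% with the same total. The median CpG ratio was 0.819 with H3K4me3 above 80 and above 150, and 0.840 with no other start. The share with another start was 41.7% with H3K4me3 above 80. Of 32 alternative values for the 4 leading gene lists, 18 stayed and 14 moved. The 1 library per group, the approximate reads and the missing input limit every value, and signal scaled to library size cannot show a genome-wide loss or gain.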
